A study of Mus musculus with 7 samples.

Results

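The genes described here are 42 ribosome biogenesis and nucleolar factors. Their mRNA was measured by RNA sequencing in splenic naive CD4 T cells of mice with an overactive phosphoinositide 3-kinase. They were chosen by symbol from a list of pathway genes, with earlier results of these data known. Each of the 42 was found once among the 34745 genes of the deposited table. The wild-type (WT) group held 3 mice. The gain-of-function (GOF) group held 4 mice heterozygous for an activating allele of PIK3CD, the gene of the p110delta catalytic subunit. All were male C57BL/6 mice aged 8 weeks, littermates served as controls, the allele is not described further in the labels, and no mouse was treated. The cells were isolated by negative selection without culture, and each library is one mouse, so that the spread within a group includes the spread between animals.

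Ribosomes are built in the nucleolus. RNA polymerase I transcribes the ribosomal RNA precursor, small nucleolar ribonucleoproteins (snoRNPs) modify it, and separate sets of assembly factors shape the small and the large subunit before both are exported. Resting naive T cells hold this machinery at a low level and raise it steeply on activation, with MYC as a main transcriptional driver, which binds the E-box sequence in many promoters of these genes.

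The levels of most of these genes differed little between the genotypes. All 42 passed the filter on low counts, and 10 were lower and 2 higher in GOF cells (edgeR quasi-likelihood test, Benjamini-Hochberg adjusted p below 0.05). That is 28.6% of the 42, against 31.3% of all 12668 genes tested, of which 14.5% were lower and 16.8% higher. The called share was thus close to the background. No member changed 2-fold, and the log2 fold changes, always GOF against WT, ran from -0.80 to 0.59. The median size of the change in either direction was 0.14 on the log2 scale, against 0.33 over all genes tested and 0.25 over the 6498 tested genes with a mean FPKM of at least 5. For 28 of the 42 the change was smaller than 0.25. The WT and GOF libraries did not overlap for 14 members, among them all 12 called ones, whereas 39.8% of all tested genes showed no overlap. The signed median was -0.05, against 0.01 for all tested genes. When libraries were scaled by their totals alone it was 0.0255, against 0.0825 for all tested genes. Its sign thus depended on the scaling, which moved both medians up.

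**Figure D1:**
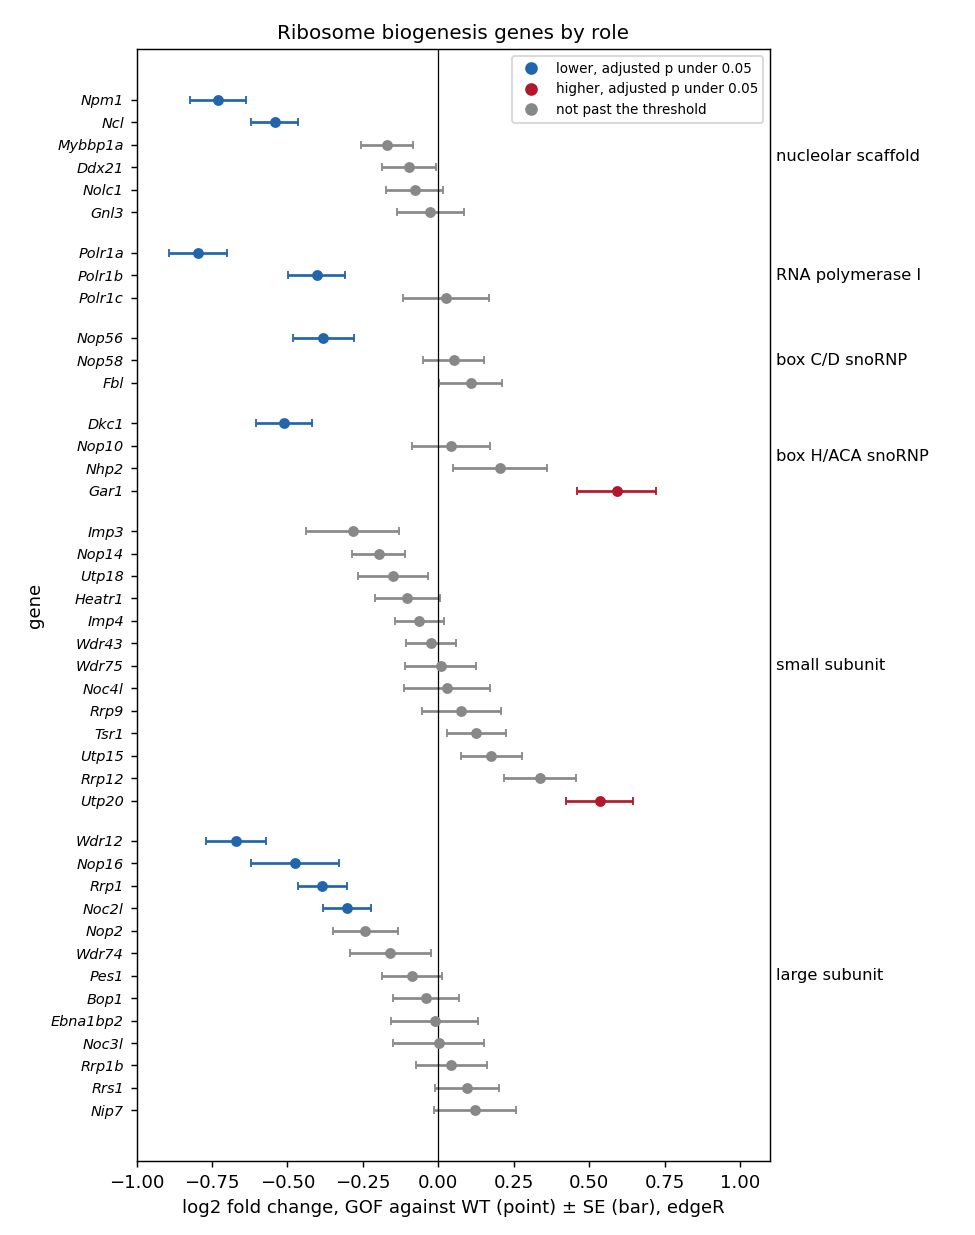
Log2 fold change of each of the 42 genes in GOF against WT cells (x axis; point, edgeR estimate; bar, SE), grouped by role (y axis) and coloured by the call at an adjusted p of 0.05. The 10 lower genes lie between -0.80 and -0.30, the 2 higher genes are Gar1 (0.59) and Utp20 (0.53), and most other points lie within 0.25 of 0.

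**Figure D2:**
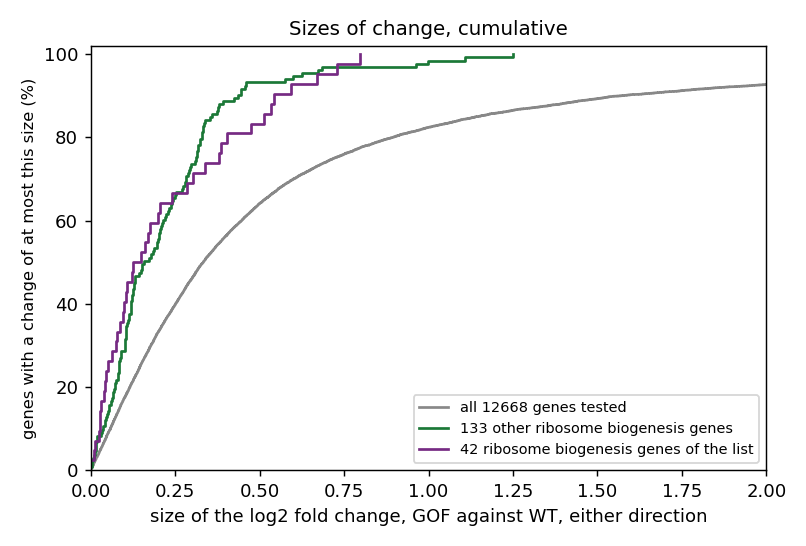
Cumulative share of genes (y axis, percent) with a log2 fold change of at most a given size in either direction (x axis, drawn to 2) for all 12668 tested genes, the 42 genes and 133 other ribosome biogenesis genes. The median lies at 0.14 for the 42 genes and at 0.33 for all tested genes.

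The libraries were of like depth, with 14497957 to 16293539 counts, and the 42 genes together took 83708 to 86480 counts in the WT libraries and 74965 to 80268 in the GOF libraries. Other measures of the libraries moved with the genotype without overlap. Mitochondrial genes took 4.33% to 5.12% of the counts in WT and 5.78% to 6.71% in GOF, and 14042 to 15264 genes had a count in WT libraries, against 15350 to 16030 in GOF libraries. The 13 CD4 T cell markers examined had counts in both groups, 6 being higher and 3 lower in GOF, and summed to 8707 to 9596 CPM (counts per 1000000, scaled by the trimmed mean of M values) in WT and 9697 to 10690 CPM in GOF. Markers of other cells were higher in GOF, most of all in GOF replicates 1 and 3. Of the 18 myeloid markers tested 15 were higher and 0 lower, and the list of 19 summed to 59.9 to 107 CPM in WT, to 590 and 629 CPM in GOF replicates 1 and 3 and to 205 and 231 CPM in GOF replicates 2 and 4. Neutrophil markers (8 of 9 tested higher, 0 lower) went from a sum of 0.766 to 9.48 CPM in WT to 59.6 to 216 CPM in GOF, with 1 of 10 at 0 in all WT libraries. Of the B cell markers 8 of 14 were higher and 0 lower, with a sum of 387 to 535 CPM in WT, 1427 and 1443 CPM in GOF replicates 1 and 3 and 821 and 920.5 CPM in GOF replicates 2 and 4. Of the NK and CD8 T cell markers 10 of 12 were higher and 0 lower, and they summed to 76.3 to 97.6 CPM in WT and 165 to 232 CPM in GOF. Red blood cell markers (5 of 8 tested higher, 0 lower) summed to 7.80 to 24.3 CPM in WT and 24.7 to 98.6 CPM in GOF, with 4 of 10 at 0 in all WT libraries. Of 18 proliferation genes 11 were higher and 1 lower, and their summed level was 635 to 664 CPM in WT and 703 to 738 CPM in GOF.

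The part of these library differences in the 12 calls was not tested beyond the values that follow. Without GOF replicates 1 and 3, 5 of the 12 calls held (Ncl, Npm1, Polr1a, Wdr12 and Utp20), while the share of all tested genes called, in a fit with fewer libraries, fell to 16.9%. The log2 fold changes of the genes that lost their call stayed near those with all libraries, the widest shift among them being that of Dkc1, from -0.51 to -0.45. Without GOF replicates 2 and 4, 9 of the 12 held, all but Nop56, Gar1 and Nop16, and 24.1% of all tested genes were called. With the myeloid marker score as a covariate, which itself differs between the genotypes, only Npm1 kept its call, and 3.11% of all tested genes passed. In that fit the log2 fold changes of Npm1, Ncl, Gar1, Utp20 and Nop16 were larger in size than without the covariate (Ncl -0.77, Gar1 0.89), and those of the other called genes were smaller (Polr1a -0.67, Noc2l -0.09). In the 19 alternative analyses run, each of the 12 kept the direction of its change wherever it was tested (Wdr12 in 18). Scaling by column totals alone ended the calls of Nop16 and Noc2l (adjusted p = 0.065 and 0.0616). In limma on log2(FPKM + 1) Nop56 and Nop16 did not pass (adjusted p = 0.0721 and 0.0594). With a pseudocount of 0.1 Noc2l joined them (adjusted p = 0.0503). After quantile normalization of log2(FPKM + 1), limma kept all 12 calls. In bulk RNA, fewer cells with a transcript and less of it per cell cannot be told apart.

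In the nucleolar scaffold group 2 of 6 genes were lower and 0 higher, 33.3% called, near the 31.3% of all tested genes. Npm1 encodes nucleophosmin, an abundant histone and ribosome chaperone of the outer nucleolus (mm10 chromosome 11, 33152287 to 33163206). The WT libraries held 1173, 1158 and 1044 CPM, whereas the GOF libraries held 738, 632.5, 718.5 and 624 CPM. Every GOF library lay well below every WT library. The mean fell from 1125 ± 70.9 (SD, n = 3) to 678 ± 58.6 CPM (SD, n = 4). On the log2 scale the change was -0.73 (SE 0.09, edgeR adjusted p = 0.000509). Npm1 also ranked first of the 42 per length, at a mean of 271 FPKM in WT and 172 FPKM in GOF. It has processed pseudogenes elsewhere in the genome, and how reads that match several places were counted is not stated, which leaves its level uncertain.

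Ncl encodes nucleolin, an RNA-binding protein of early precursor processing (mm10 chromosome 1, 86344719 to 86359400). Its level was 1140, 1050 and 1068 CPM in WT and 784, 712.5, 774.5 and 712.6 CPM in GOF, again without overlap. Ncl fell from 1086 ± 47.6 to 746 ± 38.8 CPM, a log2 fold change of -0.54 (SE 0.08, edgeR adjusted p = 0.00103). Both genes were higher in GOF replicates 1 and 3 than in 2 and 4, the reverse of the order seen in more members: 18 of the 42 members were lower in both of those replicates than in 2 and 4, against 23.6% of all tested genes, and 4 were higher (Npm1, Ncl, Nop10 and Pes1), against 25.3%.

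Together Ncl and Npm1 made up 36.9% of the summed CPM of the 42 genes in WT and 69.4% of its difference. CPM are not corrected for gene length, so these are shares of reads and not of transcripts. The sum over all 42 was 5765 to 6200 CPM in the WT libraries and 4806 to 4935 CPM in the GOF libraries, a difference of the means of -18.9%. For the other 40 genes it was 3556 to 3910 CPM in WT and 3335 to 3598 CPM in GOF, a difference of -9.16%, and the groups overlapped. The remaining 4 scaffold genes did not pass the test, with log2 fold changes from -0.17 to -0.03. They are Mybbp1a, a nucleolar Myb-binding protein, Ddx21, an RNA helicase, Nolc1, a snoRNP chaperone, and Gnl3, the GTP-binding protein nucleostemin. The smallest adjusted p among them was 0.169, for Mybbp1a.

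**Figure D3:**
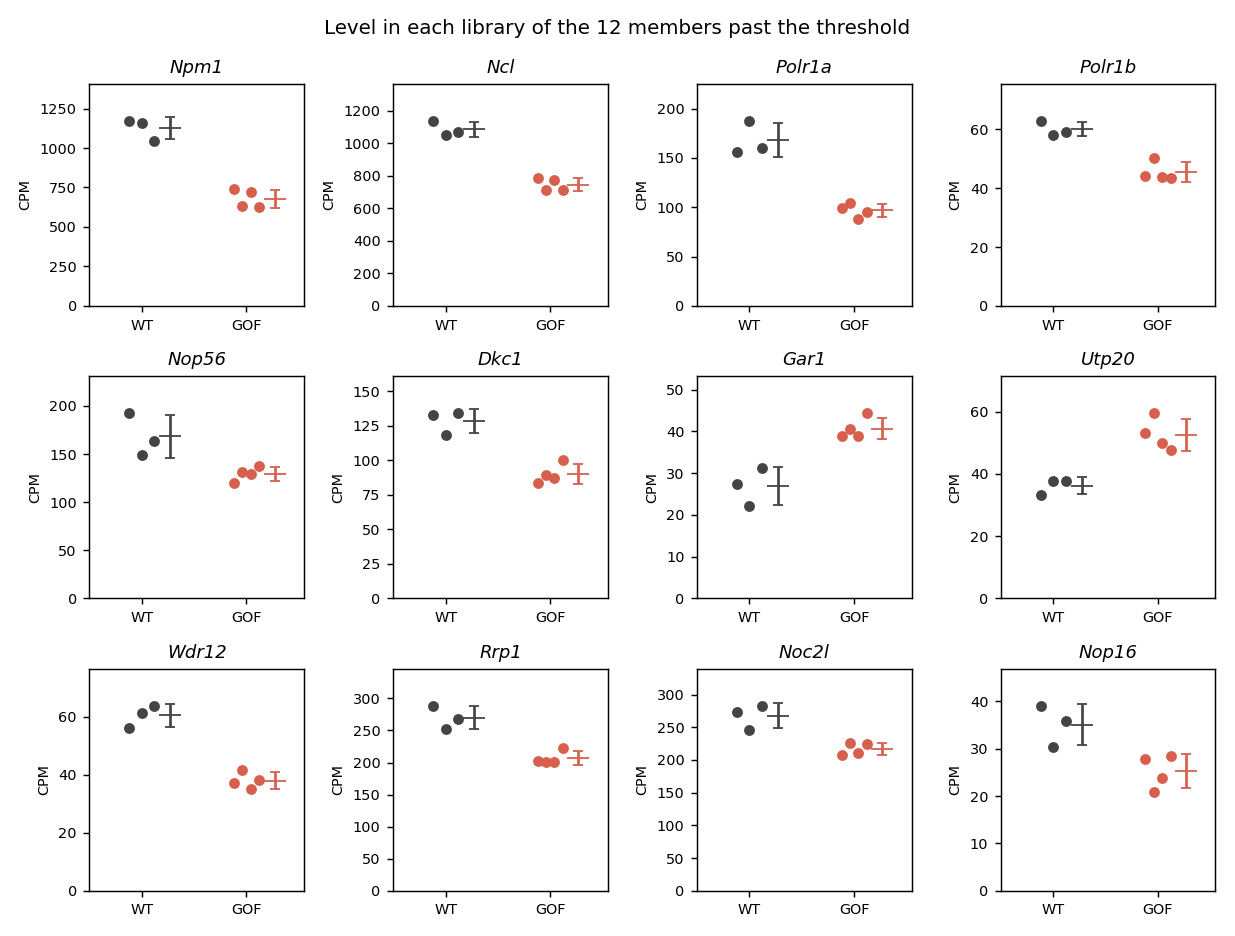
CPM (y axis, from 0, a separate scale per gene) in the 3 WT and 4 GOF libraries (points) of the 12 genes past the threshold, with the mean (horizontal tick) and SD (bar) beside each group. In every panel the WT and GOF points are separate, by a wide gap for Npm1, Ncl and Polr1a and a narrow one for Nop16, Nop56 and Noc2l.

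Of the RNA polymerase I subunits examined, both parts of the catalytic centre were lower and a shared assembly subunit was not. Polr1a, the largest catalytic subunit (mm10 chromosome 6, 71909053 to 71984935), was at 156, 188 and 160 CPM in WT and at 99.8, 104, 88.4 and 94.9 CPM in GOF. Its fall from 168 ± 17.4 to 96.8 ± 6.76 CPM was the largest relative change of the list, with a log2 fold change of -0.80 (SE 0.10, edgeR adjusted p = 0.000416). Polr1b, the partner catalytic subunit, fell from 60.1 ± 2.51 to 45.4 ± 3.33 CPM, with libraries at 62.9, 58.2 and 59.1 CPM in WT and 44.2, 50.4, 43.8 and 43.3 CPM in GOF. Its log2 fold change was -0.40 (SE 0.09, edgeR adjusted p = 0.0115), and the call was lost without GOF replicates 1 and 3 (adjusted p = 0.110).

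Polr1c, a subunit that RNA polymerase I shares with RNA polymerase III, had 47.9, 33.7 and 43.8 CPM in WT and 43.1, 37.0, 41.9 and 48.2 CPM in GOF. The groups overlapped throughout, and the log2 fold change was 0.03 with a 95% interval of -0.30 to 0.35. The ratio of Polr1a to Polr1c counts within a library, which no scaling between libraries can move, was 3.25, 5.58 and 3.66 in WT and 2.31, 2.81, 2.11 and 1.97 in GOF. Here the groups did not overlap, although the WT value of 5.58, in replicate 2, stood well above the other WT libraries. This ratio and 4 more below were chosen after their values were seen, and each was compared by an exact 2-sided permutation test. Every one of the 5 exact permutation tests gave p = 0.0571, also after Benjamini-Hochberg adjustment. This is the smallest value for 3 against 4 libraries in the form used, which doubles the smaller tail. Because the pairs were chosen by their values, these p-values are not evidence of a difference, and the ratios are a description.

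Among the box C/D snoRNP proteins, which guide ribose methylation, 1 of 3 was lower, 33.3% against 31.3% called of all tested genes. Nop56, a core scaffold protein, was at 193, 149 and 164 CPM in WT and at 120, 131, 129 and 137 CPM in GOF. The lowest WT library, replicate 2, was only slightly above the highest GOF library. The log2 fold change was -0.38 (SE 0.10, edgeR adjusted p = 0.0204), and the call did not hold without WT replicate 1 (adjusted p = 0.0608), GOF replicate 1 (0.0644) or GOF replicate 3 (0.0518). Nop58, its paralogous partner, had a log2 fold change of 0.05 (95% interval -0.18 to 0.28).

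Fbl, the methyltransferase fibrillarin, was at 126, 103 and 124 CPM in WT and 127, 112, 134 and 135 CPM in GOF. The WT and GOF ranges overlapped. Its log2 fold change of 0.11 (SE 0.10, edgeR adjusted p = 0.477) had a 95% interval of -0.13 to 0.34.

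The box H/ACA snoRNP, which converts uridine to pseudouridine, was the one group with calls in both directions. Dkc1, its catalytic subunit dyskerin (mm10 chromosome X, 75095854 to 75109777), had 133, 118 and 134 CPM in WT and at 83.5, 89.5, 87.1 and 100.5 CPM in GOF. It fell from 128 ± 8.65 to 90.1 ± 7.30 CPM, a log2 fold change of -0.51 (SE 0.09, edgeR adjusted p = 0.0036). Gar1, which joins the complex late in its assembly (mm10 chromosome 3, 129824912 to 129831396), had 27.5, 22.2 and 31.2 CPM in WT and 38.9, 40.5, 38.9 and 44.4 CPM in GOF. It rose from 27.0 ± 4.50 to 40.7 ± 2.59 CPM, a log2 fold change of 0.59 (SE 0.13, edgeR adjusted p = 0.00896).

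The other core proteins, Nhp2 and Nop10, did not pass (log2 fold changes 0.20, adjusted p = 0.351, and 0.04, adjusted p = 0.831). The Dkc1 to Gar1 count ratio was 4.83, 5.33 and 4.30 in the WT libraries and 2.15, 2.21, 2.24 and 2.26 in the GOF libraries. Its mean went from 4.82 ± 0.515 (SD, n = 3) to 2.22 ± 0.0492 (SD, n = 4), and the GOF libraries differed among themselves far less than they did from WT. Without GOF replicates 1 and 3 the adjusted p of Dkc1 was 0.0501 and that of Gar1 0.0509, with log2 fold changes of -0.45 and 0.64. Without GOF replicates 2 and 4 the adjusted p of Gar1 was 0.0556.

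**Figure D4:**
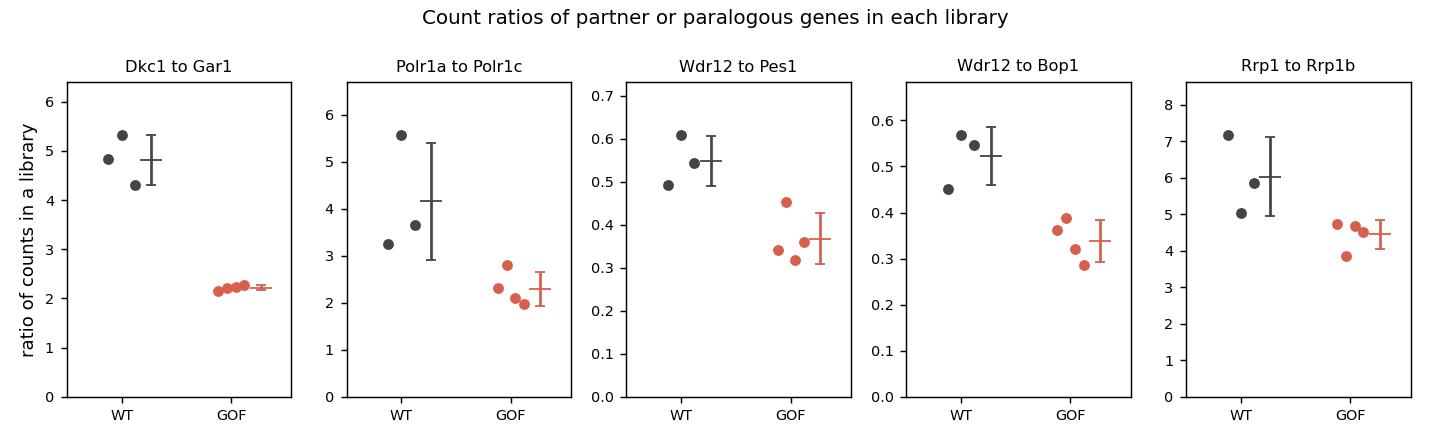
Ratio of the raw counts of paired genes within each library (y axis, from 0, a separate scale per pair; points, 3 WT and 4 GOF libraries; tick and bar, mean and SD). The groups do not overlap in any of the 5 ratios, and the Dkc1 to Gar1 ratio goes from a mean of 4.82 to 2.22. The pairs were chosen after their values were seen, so the separation is a description and not a test.

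Among the small subunit factors 1 of 13 was higher and 0 lower, 7.69% called against 31.3% of all tested genes. Utp20, a large scaffold protein of the small subunit processome (mm10 chromosome 10, 88746607 to 88826814), was at 33.2, 37.9 and 37.7 CPM in WT and 53.0, 59.5, 49.98 and 47.5 CPM in GOF. Its rise from 36.2 ± 2.65 to 52.5 ± 5.19 CPM is a log2 fold change of 0.53 (SE 0.11, edgeR adjusted p = 0.00659). The GOF libraries all lay above the WT libraries.

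The 12 other small subunit genes had log2 fold changes from -0.28 to 0.34. Nearest to the threshold was Rrp12, a factor of subunit export, with 37.9, 29.0 and 35.7 CPM in WT and 43.9, 46.7, 42.7 and 39.6 CPM in GOF. Its groups did not overlap, its log2 fold change was 0.34 and its adjusted p 0.0601. It passed with DESeq2 (adjusted p = 0.0415), with scaling by totals alone (0.0292) and without WT replicate 1 (0.0473). It also passed at a mean FPKM of at least 5 (0.0301) and in limma on log2(FPKM + 1) (0.0298) and log2(FPKM + 0.1) (0.0282). In the other alternatives Rrp12 stayed uncalled. Imp3, a partner of the processome's snoRNA, gave -0.28 (adjusted p = 0.196), which became -0.45 (adjusted p = 0.0237) without WT replicate 2. Nop14 had no overlap between groups either (log2 fold change -0.20, adjusted p = 0.123). Changes of at most 0.18 in size, none of them past the test, were found for Utp15, Utp18, Heatr1, Wdr43 and Wdr75, which bind the early transcript, and for Noc4l, Rrp9, Imp4 and Tsr1.

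In the large subunit group 4 of 13 genes were lower and 0 higher, 30.8% called, near the 31.3% of all tested genes. Wdr12, a member of the PeBoW complex with Pes1 and Bop1 (mm10 chromosome 1, 60069785 to 60098645), was at 56.2, 61.3 and 63.8 CPM in WT and at 37.2, 41.8, 34.9 and 38.1 CPM in GOF. It fell from 60.4 ± 3.84 to 38.0 ± 2.84 CPM, a log2 fold change of -0.67 (SE 0.10, edgeR adjusted p = 0.0012). Its partners did not pass, with log2 fold changes of -0.09 for Pes1 (95% interval -0.31 to 0.14) and -0.04 for Bop1 (-0.29 to 0.21). The Wdr12 to Pes1 count ratio was 0.492 to 0.610 in WT and 0.317 to 0.454 in GOF. That of Wdr12 to Bop1 was 0.451 to 0.569 in WT and 0.285 to 0.389 in GOF. Wdr12 overlaps Carf on the opposite strand by 399 bases, and Carf was also lower (log2 fold change -1.49, 755 counts over the 7 libraries). The part of Carf reads in the Wdr12 values was not tested.

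Rrp1, a nucleolar factor of large subunit processing (mm10 chromosome 10, 78400362 to 78413043) and the gene with the second highest FPKM of the list, was at 289, 253 and 268 CPM in WT and at 203, 200.4, 200.6 and 223 CPM in GOF. The log2 fold change was -0.38 (SE 0.08, edgeR adjusted p = 0.00689), and without GOF replicates 1 and 3 the adjusted p was 0.0801. Its paralog Rrp1b had a log2 fold change of 0.04 (adjusted p = 0.807). The count ratio of Rrp1 to Rrp1b was 5.04 to 7.17 in WT and 3.85 to 4.74 in GOF.

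Noc2l, which carries precursors out of the nucleolus in complexes with other NOC proteins, was at 273, 246 and 283 CPM in WT and at 207, 226, 210 and 224 CPM in GOF. The gap between the groups was small, and the log2 fold change of -0.30 (SE 0.08, edgeR adjusted p = 0.0194) did not keep its call when WT replicate 1 or 3, or GOF replicate 1 or 3, was left out (adjusted p = 0.0501 to 0.0749). Nop16 was at 39.1, 30.4 and 35.8 CPM in WT and 27.9, 20.9, 23.8 and 28.4 CPM in GOF (log2 fold change -0.47, SE 0.14, adjusted p = 0.0344), and it did not pass when WT replicate 1 or 3, or GOF replicate 2 or 3, was left out (0.0676 to 0.101). The other 7 genes, beside Pes1 and Bop1, had log2 fold changes from -0.24 to 0.12. They are Nop2, a ribosomal RNA methyltransferase, Nip7, Rrs1, Noc3l, Ebna1bp2, Wdr74 and Rrp1b.

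For 27 of the 30 members that did not pass, the 95% interval of the log2 fold change lay within 0.5 of 0. This bound is wider than some of the called changes, such as those of Noc2l (-0.30) and Polr1b (-0.40). It therefore does not exclude changes of that size. Of the 8 members overlapped by another gene with at least 100 counts, all on opposite strands, 3 were called (Nop56, Dkc1 and Wdr12). The overlap was 5 bases with Idh3b for Nop56 and 45 bases with Mpp1 for Dkc1, and neither of those neighbours passed (adjusted p = 0.278 and 0.55). The sources used here do not say whether the counting used strand.

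The rest of the pathway was taken from a longer list, of which 133 genes were in the table and all were tested. Of these 8 were higher and 14 lower, 16.5% called, against 31.3% of all tested genes, with a median log2 fold change of -0.05. This split depended on the scaling, with 16 higher and 6 lower when libraries were scaled by their totals. The split over all tested genes moved the same way, from 2130 higher and 1838 lower to 2527 and 1428. With single libraries left out, 23.6% to 30.5% of all tested genes were called. Of the 133 genes 5 to 12 were then higher, the fewest without WT replicate 3 or GOF replicate 4. Between 8 and 18 were lower, with 8 or 9 when WT replicate 1 or 3, or GOF replicate 1, 3 or 4, was absent. Among the 13 other RNA polymerase I factors 0 rose and 2 fell: Cd3eap, a polymerase subunit, and Taf1d, part of its promoter selectivity factor (log2 fold changes -0.46, edgeR adjusted p = 0.0316, and -0.43, adjusted p = 0.00672), picked out here once their values were known. Of 10 other snoRNP factors 1 fell, Naf1, which assembles box H/ACA particles before Gar1 takes its place. Its level was 23.3, 25.8 and 28.3 CPM in WT and 12.7, 10.1, 10.5 and 10.03 CPM in GOF, a log2 fold change of -1.25 (SE 0.14, edgeR adjusted p = 0.000269).

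Of 43 other small subunit factors 3 rose and 1 fell, and Ltv1, an assembly factor of the subunit's head, rose from 41.9 ± 6.46 to 63.4 ± 3.08 CPM (log2 fold change 0.60, edgeR adjusted p = 0.00494). Of 54 other large subunit factors 4 rose and 8 fell. Gltscr2, also known as Nop53, a late processing factor, fell from 855 ± 91.2 to 439 ± 41.4 CPM (log2 fold change -0.96, adjusted p = 0.000218), and Spata5l1, an AAA ATPase, from 40.2 ± 6.54 to 18.7 ± 1.96 CPM (-1.11, adjusted p = 0.00061). Rrp15 rose from 14.7 ± 2.01 to 29.4 ± 1.96 CPM (1.00, adjusted p = 0.000736) and Kri1 from 98.8 ± 3.29 to 147 ± 7.22 CPM (0.58, adjusted p = 0.000789). Of 13 exosome genes, whose products trim the precursor, 1 rose and 2 fell. With the myeloid marker score as a covariate Gltscr2 kept its call (adjusted p = 0.0297), whereas Naf1 (0.0796), Kri1 (0.0805), Rrp15 (0.236), Ltv1 (0.315) and Spata5l1 (0.392) did not. Ltv1 also did not pass without GOF replicates 1 and 3 (adjusted p = 0.0544).

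Myc, whose product drives these genes in activated lymphocytes, was at 254, 173 and 239 CPM in WT and at 84.7, 79.5, 80.2 and 101.1 CPM in GOF. Each GOF library was below every WT library, and the log2 fold change was -1.36 (SE 0.14, edgeR adjusted p = 0.000178). In size this estimate exceeded that of each of the 42 genes. With the myeloid marker score as a covariate it was -1.14 and did not pass (adjusted p = 0.156).

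Because MYC binds the E-box, promoters of the members were searched for its letters CACGTG, a palindrome that reads the same on both strands. RefSeq promoters on GRCm38.p6, from 250 bases before to 50 bases after the start, were available for 37 of the 42 genes. The letters were in 8 of them, or 21.6%, against 8.09% of 27025 genes with a promoter and 11.8% of the 9143 tested genes with one. A match is a description of the letters and not of binding. The 8 matches are shown, 5′ to 3′ on the gene's strand with the E-box in capitals, to set the sequence beside each gene's change.

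Imp4: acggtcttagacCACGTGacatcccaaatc
Mybbp1a: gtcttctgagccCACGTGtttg
Nop2: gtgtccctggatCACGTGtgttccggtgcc
Pes1: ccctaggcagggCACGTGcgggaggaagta
Tsr1: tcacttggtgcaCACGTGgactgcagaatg
Utp18: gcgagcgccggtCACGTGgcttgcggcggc
Utp20: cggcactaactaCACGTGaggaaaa
Wdr43: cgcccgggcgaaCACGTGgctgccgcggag

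The windows lie at chr1:34439696-34439725 for Imp4, chr11:72441355-72441376 for Mybbp1a, chr6:125131811-125131840 for Nop2, chr11:3963965-3963994 for Pes1, chr11:74898092-74898121 for Tsr1 and chr17:71616220-71616249 for Wdr43, all on the plus strand. They lie at chr11:93885769-93885798 for Utp18 and chr10:88826765-88826789 for Utp20, both on the minus strand. Of these 8 genes only Utp20 was called, and it was higher (log2 fold change 0.53). The other 7 had log2 fold changes from -0.24 for Nop2 to 0.13 for Tsr1. Of the 10 genes that were lower in GOF cells 9 had a promoter entry, and the letters were in 0 of these 9 windows. Npm1, Fbl, Bop1, Rrp12 and Rrs1 were without an entry.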

How the data were processed

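RNA sequencing counts of 3 WT and 4 GOF libraries were analysed, grouped by sample title. The table the authors deposited gives raw counts and FPKM values. HISAT2 2.0.4, Cufflinks 2.1.1, Cuffdiff and build mm10 are listed, without their roles, per the submitters' processing notes. The deposited FPKM equals the count divided by a fixed gene length and the column total (within 0.1% for 100% of values with at least 10 counts).

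Counts were tested with edgeR 4.0.16 in R 4.3.3 (quasi-likelihood, filterByExpr, TMM, all 7 libraries, genotype only) over 12668 genes, with Benjamini-Hochberg adjustment at 0.05. The standard error is the log2 fold change over the root of the F statistic. CPM uses TMM-scaled totals. Single genes were ranked by level as FPKM, and summed CPM, not corrected for length, are shares of reads. Ratios were tested by exact permutation (scipy 1.17.1). The fitting code was tested on simulated counts. The members, lists and libraries doubted were chosen with earlier results of these data known. Full statistics are given for up to 3 called members per role with the smallest p, for Ncl, Npm1, Fbl and Myc, and for up to 3 rising and 3 falling other pathway genes. Alternatives were other scalings, filters, DESeq2 1.42.0, left-out libraries, a replicate block and a marker covariate. They also included limma 3.58.1 on log2(FPKM + 1), with and without quantile normalization, and on log2(FPKM + 0.1). Loci are as deposited. Strand and gene type are from GENCODE M21. The edgeR p-values set the difference between the groups against the spread of libraries within them, which includes the spread between mice.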

Additional observations from a re-analysis of the deposited data

Results flagged for a closer look

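In 4 of 49 genes checked, 1 of the 4 GOF libraries stood far from the others by Dixon's criterion for the gap over the range, which chance gives in about 1 of 20 groups. Rrp1 was at 223 CPM in GOF replicate 4 and at 200.4 to 203 CPM in the others. Polr1b was at 50.4 CPM in GOF replicate 2, against 43.3 to 44.2 CPM. Heatr1, which was not called, was at 83.2 CPM in GOF replicate 2, against 70.7 to 72.1 CPM. Rrp15 was at 32.3 CPM in GOF replicate 3, against 28.04 to 28.6 CPM. In Rrp1 and Polr1b, the genes called lower, the library apart was the one nearest to WT.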

How the results depend on the processing

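No call of the 42 genes turned its direction in any of the 19 alternatives that tested it, and Npm1 kept its call in all. Members called higher were 1 without GOF replicates 1 and 3, 1 without GOF replicates 2 and 4 and 0 with the myeloid covariate. Members called lower were 4 without GOF replicates 1 and 3 and 1 with the covariate. With 1 library left out, 2 to 3 were higher and 7 to 11 lower. The share of all tested genes called changed as well, from 31.3% in the main fit. It was 16.9% without GOF replicates 1 and 3, 24.1% without 2 and 4 and 3.11% with the covariate. With 1 library left out it was 23.6% to 30.5%. Other ribosome biogenesis genes called higher were 16 with column totals, 18 and 19 in limma with pseudocounts of 1 and 0.1, 14 at a mean FPKM of at least 5, 3 without GOF replicates 1 and 3, 5 without 2 and 4, 0 with the covariate and 5 to 12 with 1 library left out. Those called lower were 6 with column totals, 8 and 8 in the limma fits, 5 without GOF replicates 1 and 3, 7 without 2 and 4, 1 with the covariate and 8 to 18 with 1 library left out. Over all tested genes, 2527 were higher and 1428 lower with column totals. In the limma fits with pseudocounts of 1 and 0.1, without quantile normalization, 2598 and 2673 were higher and 1390 and 1384 lower. At a mean FPKM of at least 5 these counts were 1093 higher and 1069 lower. With quantile normalization of log2(FPKM + 1) limma gave the opposite split, 1870 higher and 2107 lower. That fit called the same 12 members, and 12 higher and 10 lower of the other ribosome biogenesis genes. The median log2 fold change of the 42 was 0.0255 with column totals and 0.0214 and 0.0221 in the limma fits without quantile normalization. It was -0.13 without GOF replicates 2 and 4 and 0.0717 with the covariate. The medians over all tested genes in these fits were 0.0825, 0.0601 and 0.0847, 0.017 and 0.0361. In the quantile-normalized limma fit the median was -0.0215 for the 42 and -0.0364 over all tested genes. The replicate block used only the numbers present in both groups, so that GOF replicate 4 was left out as well. That fit (8 lower and 2 higher members, 25.6% of all tested genes called) ended the calls of Polr1b and Noc2l (adjusted p = 0.0545 and 0.0509). Without GOF replicate 4 and without the block, all 12 calls held. Whether the shared numbers pair the libraries was not settled. Deviations of same-numbered libraries correlated across genes at 0.03, 0.15 and -0.04. The value of 0.15, for replicate 2, was the highest of all pairs, but not every library correlated best with its own number. Deviations from the means of only 3 and 4 libraries cannot decide this. Up to 13 uncalled members changed sign in an alternative (13 with the covariate, at most 8 in any other) while staying uncalled. At this depth and number of mice, small changes of the uncalled members could not be told from 0. The deposited FPKM divide by the column total, so the limma fits without quantile normalization share their scaling with the column-total fit. They are not separate checks of the scaling. The cause of the shifts between the alternatives was not tested.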

Other observations

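Non-coding host genes of small nucleolar RNAs, whose introns carry the guides that the snoRNPs use, were looked at beside the proteins. Of 17 listed, 12 were tested, and 1 was higher and 1 lower, with a median log2 fold change of -0.08. That is 16.7% called, against 31.3% of all tested genes. Snhg5 rose from 21.4 ± 1.595 to 31.4 ± 3.96 CPM (log2 fold change 0.55, edgeR adjusted p = 0.0135), and Snhg17 fell from 64.6 ± 7.67 to 49.3 ± 5.21 CPM (-0.39, adjusted p = 0.036). Gas5 had a log2 fold change of -0.09 that did not pass. Of 9 tested genes of the MYC network 2 were higher and 3 lower, 55.6% called against 31.3% of all tested genes. Mxd3, a MYC antagonist of the MXD family, rose from 0, 0.0689 and 0 CPM in the WT libraries to 1.56, 1.79, 3.07 and 1.029 CPM in GOF (adjusted p = 0.00118), and Mlx, a partner of that family, from 41.9 ± 13.15 to 80.02 ± 6.49 CPM (log2 fold change 0.93, adjusted p = 0.00825). Those that fell were Myc, Mnt, a repressor in the network (-0.43, adjusted p = 0.00707), and Mxi1, another antagonist of the MXD family, which went from 72.1 ± 2.38 to 29.1 ± 2.32 CPM (log2 fold change -1.31, adjusted p = 2.42e-05). These genes were named after their values were seen. Ribosomal protein genes took 4.90% to 6.40% of counts in WT and 4.54% to 5.80% in GOF, with overlap between the groups.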
